A study of Rattus norvegicus with 6 samples.

Results

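Ldha and Pdk3 are the genes examined here, each measured by 1 catalogue probe that an Agilent array carries in 10 copies. They were chosen by name, as genes that act on pyruvate, from the 30 genes that have a named probe among the 38804 probes that are not controls. The accessions attached to the probes, NM_017025 for Ldha (A_44_P210461) and NM_001106581 for Pdk3 (A_44_P443343), each matched 1 RefSeq gene, and no second probe of either gene could be named. RNA came from BMMSCs of rats, the mesenchymal stromal cells that grow out of bone marrow and can become bone-forming osteoblasts. They were taken from femurs and kept for 7 days in osteogenic medium. The 3 control samples came from Wistar rats, the normal animals, and the other 3 from GK rats, which the labels call type 2 diabetic. No age, sex or further allele is given in the labels, and all samples were induced, so the effect of induction is not measured. Diabetes and any other trait that parts the strains cannot be told apart. Replicates are numbered in the labels with no word on whether separate animals gave them, so a p-value here reflects the spread of these samples alone, which may be technical. None of the 24 cell type markers looked up, for osteoblasts, stromal cells, adipocytes, leukocytes and endothelium, has a named probe, so the labelled cell type could not be checked. In such bulk samples, fewer cells of a type and less RNA per cell cannot be told apart.

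Pyruvate, the end product of glycolysis, can be reduced to lactate in the cytosol or carried into mitochondria and oxidised. Lactate dehydrogenase interconverts pyruvate and lactate and in doing so recycles NAD+ for glycolysis, and Ldha encodes its A subunit, the one that predominates in skeletal muscle and in many fast-growing cells. The pyruvate dehydrogenase complex makes acetyl-CoA from pyruvate in mitochondria, and Pdk3 encodes one of the kinases that phosphorylate the complex and switch it off. Both proteins therefore act where pyruvate is sent to lactate or to oxidation. Osteoblasts are known to rely strongly on glycolysis with lactate release. Transcript levels alone give neither enzyme activity nor flux.

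The start regions of both genes are shown because hypoxia and cAMP signalling are known to act on the Ldha promoter, and because they allow the sequences upstream of the genes to be set side by side. Both are the 250 bases before the RefSeq gene start in assembly GRCr8, read 5′ to 3′ along the gene. Capitals mark matches on either strand to ACGTG, a form of the core bound by hypoxia-inducible factors, to TGACGTCA, the cAMP response element, and to GGGCGG, the GC box.
Ldha, plus strand, chr1:106507842-106508091: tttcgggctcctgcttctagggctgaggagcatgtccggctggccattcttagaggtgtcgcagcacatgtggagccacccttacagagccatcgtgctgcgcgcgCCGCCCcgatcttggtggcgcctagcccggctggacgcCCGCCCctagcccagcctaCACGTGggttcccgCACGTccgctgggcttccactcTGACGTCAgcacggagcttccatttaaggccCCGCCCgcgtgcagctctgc
Pdk3, minus strand, chrX:62547372-62547621: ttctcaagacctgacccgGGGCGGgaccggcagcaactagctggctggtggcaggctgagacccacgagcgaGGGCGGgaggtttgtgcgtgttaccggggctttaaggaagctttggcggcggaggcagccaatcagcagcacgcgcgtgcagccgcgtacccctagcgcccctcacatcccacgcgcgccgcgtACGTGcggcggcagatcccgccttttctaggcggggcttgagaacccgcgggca

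The Ldha window held 3 matches to ACGTG, of which 2 overlap on opposite strands in CACGTG, beginning at bases -87 and -86, and the third begins at base -73. The Pdk3 window held 1, beginning at base -54. Of 33469 RefSeq promoters cut to the same length, 16.6% held ACGTG at least once and 1.26% held it 3 times or more. GCGTG, another form of the core, was not searched for. On either strand it stands unmarked in both windows, more often in that of Pdk3. The ACGTG counts therefore do not compare the genes for the core as a whole. TGACGTCA stood once in the Ldha window, at base -51, and not in that of Pdk3, and 1.59% of all promoters held it. GGGCGG was matched 3 times for Ldha and 2 times for Pdk3, and 30.5% of promoters held it. TATAAA was in neither window and in 12.9% of promoters. The G and C content was 66.4% for Ldha and 68.0% for Pdk3, against a median of 51.2% over all promoters. These matches describe letters in the windows, and no binding was measured.

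GK replicate 3 correlated less with the other GK arrays than these did with each other. Across 27595 probes measured on every array, GK replicates 1 and 2 correlated at Pearson's r = 0.982. For GK replicates 1 and 3 r was 0.948, and for GK replicates 2 and 3 it was 0.962. Between GK replicate 3 and Wistar replicate 3 r was 0.971. GK replicate 2 was likewise closer to Wistar replicates 1 and 2 (r = 0.968 and 0.966) than to GK replicate 3. The lowest r of any pair was 0.944, between GK replicate 1 and Wistar replicate 3. These correlations do not single out GK replicate 3 alone. GK replicate 3 was also set against the Wistar mean and the mean of GK replicates 1 and 2. It lay nearer to the Wistar mean for 14 of the 22 named genes well above background on all arrays. Ldha and Pdk3 were among them, though the group means of Pdk3 differ by only -0.012. The means compared rest on unequal numbers of arrays. The count was not made over all tested probes or for the other GK arrays, so it does not set GK replicate 3 apart. Because GK replicate 3 correlated less with the other GK arrays, the main values are given with and without it. These are the differences of Ldha and Pdk3, their ratio and the count of probes that passed. Other differences are given with it only, and the source of these correlations was not tested.

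Ldha was read clearly on every array. All 60 of its spots were well above background, and the raw spot signal was between 85.7 and 170.1 times the local background (array medians). Its mean processed signal, before any scaling between arrays, was 2231, 1827 and 1509.8 on Wistar replicates 1, 2 and 3. On GK replicates 1, 2 and 3 it was 2212, 2673 and 2422. On this unscaled scale, Wistar replicate 1 lay between GK replicates 1 and 3, and the other Wistar arrays lay below all GK arrays.

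Levels were then expressed on the log2 scale relative to the 75th percentile of the array, which lay between 171.6 and 234.8 signal units. On this scale Ldha read 3.37, 3.24 and 3.13 on Wistar replicates 1, 2 and 3, and 3.69, 3.77 and 3.37 on GK replicates 1, 2 and 3. GK replicates 1 and 2 were the highest of the 6 arrays, with a gap of 0.32 to the next. GK replicate 3 stood at 3.37 beside Wistar replicate 1, and 0.00083 separated these arrays, so the groups overlap. All 3 GK arrays were above the Wistar mean, and 2 of the 3 were above every Wistar array.

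On the scaled values, the separation of GK replicates 1 and 2 was also seen in single spots. Spots on an array are copies of 1 probe and share its scaling value, so they add no samples. Before scaling, the mean signals of GK replicate 1 and Wistar replicate 1 were 2212 and 2231. After scaling, the lowest used Ldha spot on GK replicates 1 and 2 read 3.58, and the highest used spot on any Wistar array read 3.48. GK replicate 3 had spots from 3.26 to 3.44, inside the range of Wistar replicate 1, whose spots ran from 3.25 to 3.48. Wistar replicate 3 held the lowest spot, 2.85, and the widest spread of spots, with an SD of 0.13 against 0.041 to 0.076 on the other arrays.

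**Figure D1:**
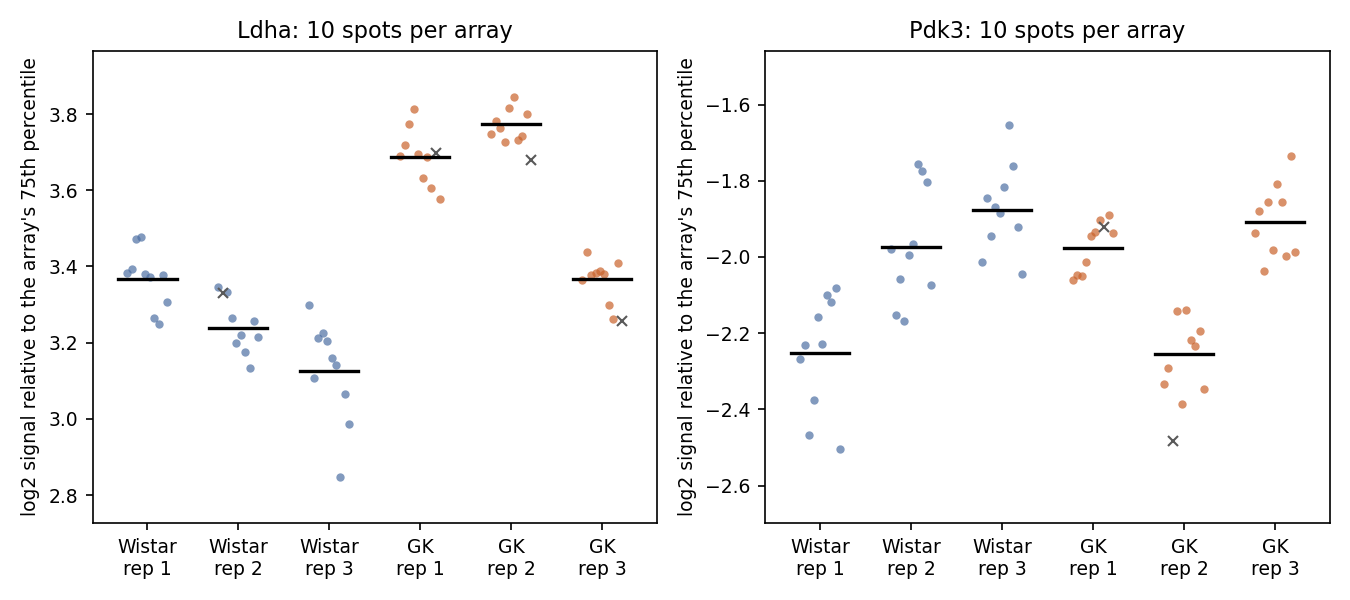
Log2 signal relative to the array's 75th percentile for each of the 10 spots of the Ldha probe (left) and the Pdk3 probe (right) on the 3 Wistar (blue) and 3 GK (orange) arrays; black lines are the means over used spots, crosses are spots with an outlier flag that were left out, and both panels span the same height. For Ldha, GK replicates 1 and 2 (3.69 and 3.77) lie above all Wistar spots while GK replicate 3 (3.37) lies level with Wistar replicate 1; for Pdk3, the arrays of both groups are interleaved between -2.25 and -1.88.

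Ldha averaged 3.61 ± 0.21 in GK cells and 3.24 ± 0.12 in Wistar cells (SD, n = 3 each). The log2 difference of 0.37 (standard error 0.20) is 1.29-fold, with a 95% interval from 0.930-fold to 1.79-fold. It did not pass the test across the array (limma adjusted p = 0.507 over 27920 probes), and its unadjusted limma p was 0.109. An exact two-sided permutation test of the 6 values gave p = 0.20, where 0.10 is the smallest p that 3 against 3 arrays allow. At the standard error of Ldha, a difference of 1.45 on the log2 scale (2.73-fold) would have been needed to pass the adjusted threshold, and 0.47 to pass an unadjusted p of 0.05.

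The Ldha difference kept its sign in all 24 alternative settings. It passed the adjusted threshold in none of them (limma adjusted p from 0.254 to 0.981). The smallest unadjusted limma p was 0.0373, with normexp, where the adjusted p was 0.417. The difference ranged from 0.28 to 0.49. The extremes came from GK arrays left out: it was 0.49 without GK replicate 3 (limma adjusted p = 0.330) and 0.28 without GK replicate 2. The 3 Wistar arrays and GK replicate 1 shared 1 scan and are taken as a slide, while GK replicates 2 and 3 shared another. Within the first slide, GK replicate 1 exceeded the 3 Wistar arrays by 0.44 (limma adjusted p = 0.458, with the lone array assumed to vary as the others do). Slide and group cannot be told apart on the second slide, which holds GK arrays only.

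Pdk3 gave a much weaker reading against background, and its levels are on the scale of its own probe, which cannot be set against that of Ldha. All 60 of its spots were well above background, at 3.45 to 5.27 times the local background. The mean processed signal was 45.3, 49.3 and 47.2 on Wistar replicates 1, 2 and 3. It was 43.6, 41.0 and 62.6 on GK replicates 1, 2 and 3. GK arrays thus supplied the lowest and the highest Pdk3 signal before scaling, and GK replicate 3, the highest, is also the array with the highest 75th percentile.

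After scaling, Pdk3 read -2.25, -1.97 and -1.88 on Wistar replicates 1, 2 and 3, and -1.98, -2.25 and -1.91 on GK replicates 1, 2 and 3. The arrays fell into near-pairs with 1 array of each group: GK replicate 2 with Wistar replicate 1, GK replicate 1 with Wistar replicate 2, and GK replicate 3 with Wistar replicate 3. The members of these pairs were 0.0013, 0.0031 and 0.032 apart. Over the tested probes, deviations from the group means correlated at 0.46, 0.099 and 0.42 for the same pairs. The near-pairs were therefore not looked at as a feature of Pdk3 alone. The range within the GK group was 0.35 and that within the Wistar group 0.38, so both groups covered nearly the same span.

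Pdk3 averaged -2.05 ± 0.18 in GK cells and -2.03 ± 0.20 in Wistar cells (SD, n = 3 each). The log2 difference was -0.012 (standard error 0.20), or 0.992-fold, with a 95% interval from 0.709-fold to 1.39-fold. It did not pass (limma adjusted p = 0.988), and the exact two-sided permutation test gave p = 0.70. A change in Pdk3 of up to 1.41-fold down or 1.39-fold up in GK cells lies inside this interval, and the test does not show that the strains are alike. The sign has no standing: of 24 alternative settings, 11 gave a higher mean in GK cells, and scaling to the array median, for example, gave 0.015. No setting passed, and the values lay between -0.12 and 0.092, with -0.081 without GK replicate 3 (limma adjusted p = 0.922).

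The unequal movement of the genes was examined as the log2 ratio of Ldha to Pdk3 on each array, which needs no scaling between arrays. Centred on its mean over the 6 arrays, the ratio read 0.15, -0.26 and -0.47 on Wistar replicates 1, 2 and 3, and 0.20, 0.56 and -0.19 on GK replicates 1, 2 and 3. The highest 2 values were GK arrays and the lowest 2 Wistar arrays, with the groups overlapping through GK replicate 3 and Wistar replicate 1. The change in Ldha exceeded that in Pdk3 by 0.38 on the log2 scale (SD of the ratio 0.38 in GK and 0.32 in Wistar, n = 3 each), a difference that did not stand out from the spread (exact two-sided permutation p = 0.20, the smallest possible being 0.10). It was 0.19 without GK replicate 2, 0.24 without Wistar replicate 3, 0.55 without Wistar replicate 1 and 0.57 without GK replicate 3.

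**Figure D2:**
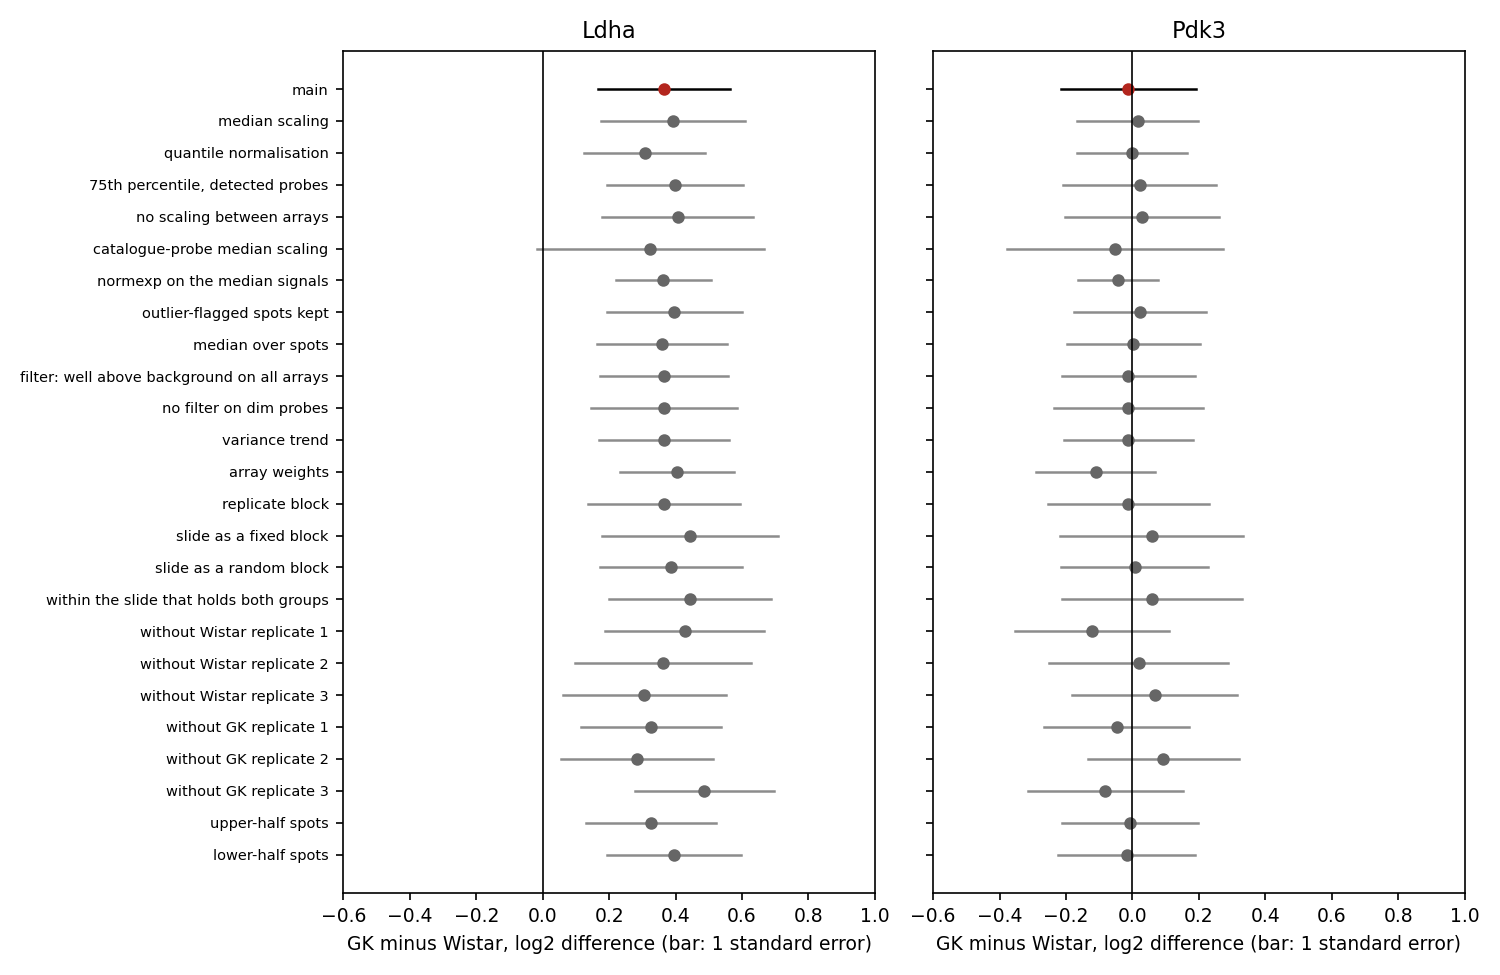
GK minus Wistar log2 difference of Ldha (left) and Pdk3 (right) under the reported setting (red) and the 24 alternatives (grey), with bars of 1 standard error. All Ldha values lie between 0.28 and 0.49, while Pdk3 values lie on both sides of 0, between -0.12 and 0.092.

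The spread between arrays, not that between spots, set the precision for both genes. For Ldha the SD of spots on an array was 0.080 (pooled) and that of arrays within a group 0.17, which is 2.18 times as large. For Pdk3 these were 0.12 and 0.19, a ratio of 1.64. With about 10 spots averaged, spot scatter amounts to 2.24% of the variance between Ldha arrays and 3.86% for Pdk3. Part of the spot scatter followed position. Differences between the mean values of spot positions over the 6 arrays held 55.9% of it for Ldha and 52.8% for Pdk3. Position means from the same arrays also take in some random scatter, so these shares are upper readings. The same Ldha spot was the lowest on 4 of 6 arrays. The Ldha difference was 0.33 from the 5 spots in the upper rows of the array and 0.40 from the 5 in the lower rows. For Pdk3 it was -0.0068 from 7 upper spots and -0.017 from 3 lower ones.

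Both genes varied less between arrays of a group than most probes, but the comparison is unequal. Each gene is a mean over copies of its probe, and averaging lowers spot scatter. The array has 41800 spots for 38804 probes that are not controls, so most probes have fewer copies. What averaging contributes to the shares given next was not tested. Outside the 50 catalogue probes, 0 probes matched a RefSeq accession. The shares therefore place both genes among the probes of this array, most of them unnamed, and not among genes in general. Of the tested probes, 13.9% had a smaller within-group SD than Ldha and 17.2% a smaller one than Pdk3, and the median SD over tested probes was 0.33. In size of difference, 36.3% of tested probes differed by more than Ldha in either direction, and the median absolute difference was 0.26. For Pdk3, 97.4% of tested probes differed by more. Over the whole set of tested probes the log2 differences had a median of -0.0040.

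Neither gene was among the 100 of 27920 tested probes (0.358%) that passed at an adjusted p under 0.05. Of these, 55 were higher (0.197%) and 45 lower (0.161%) in GK cells. With arrays scaled to the median of the catalogue probes the split was 61 higher and 95 lower, and with normexp background correction 26 and 36. The count moved with single arrays: it was 30, 46 and 31 without Wistar replicates 1, 2 and 3, and 54, 34 and 665 without GK replicates 1, 2 and 3. At an unadjusted p under 0.05 limma called 3518 probes (12.6%), again without either gene. The GK and Wistar arrays did not overlap for 18.6% of tested probes, and they overlapped for both Ldha and Pdk3.

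Ldha and Pdk3 are the only members of a list of 41 glycolysis, lactate transport and pyruvate dehydrogenase genes with a named probe, and 0 of these 2 passed in either direction. The other 39, among them Ldhb, the other pyruvate dehydrogenase kinases Pdk1, Pdk2 and Pdk4, the kinase's substrate Pdha1, the phosphatases Pdp1 and Pdp2 that reverse it, and the lactate exporter Slc16a3, were not analysed here.

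The comparison with other named genes therefore runs over unrelated functions. Among the 23 protein-coding genes with a named probe that were tested, 17 differences were positive and 6 negative for GK minus Wistar. None of the 23 passed (limma, 0 at an adjusted and 0 at an unadjusted p under 0.05). Their median log2 difference was 0.17, and 49.6% of all tested probes were higher in GK cells. The other named gene tested, the noncoding RNA LOC108352165, was left out of these counts. It differed by 0.89, with a limma 95% interval from 0.13 to 1.65, which lies above 0. It did not pass the adjusted threshold. Ldha had the 6th highest difference of the 23 and Pdk3 the 18th. In spread between arrays of a group, Ldha was the 3rd lowest and Pdk3 the 5th lowest of the 23. When arrays were scaled to the median of the catalogue probes, the Ldha difference was 0.32 and that of Pdk3 -0.053.

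**Figure D3:**
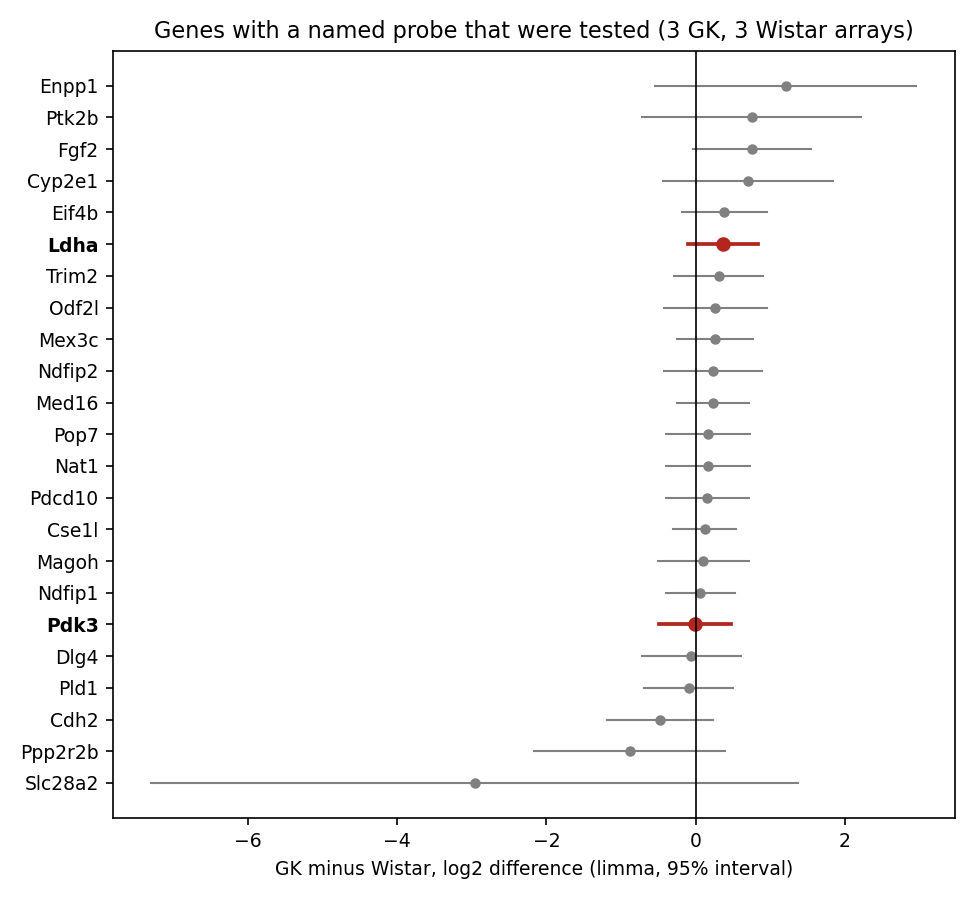
GK minus Wistar log2 difference with its 95% interval from limma for the 23 protein-coding genes with a named probe that were tested, from 3 GK and 3 Wistar arrays, ordered by size. Ldha (0.37) and Pdk3 (-0.012), in red, have narrower intervals than most, and the interval of every gene includes 0.

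The named genes nearest to each pattern were found among the 21 others that were well above background on all 6 arrays, by the root mean square difference of log2 levels after each gene was centred on its own mean. Nearest to Ldha were Mex3c, an RNA-binding ubiquitin ligase, at 0.13, Med16, a Mediator subunit, also at 0.13, and Pop7, a subunit of RNase P, at 0.17. These distances are smaller than the 0.23 that separates Ldha from a flat line, as are those of all genes up to the 8th nearest (Cse1l, 0.227). All 3 genes were lowest on Wistar replicate 3 and below their own mean on GK replicate 3. Each had its highest level on GK replicate 1 or GK replicate 2. Sharing these features follows from how the genes were picked. Magoh, Ndfip1, Ndfip2, Enpp1, Fgf2 and LOC108352165 were also lowest on Wistar replicate 3. Of these, Ndfip2, Enpp1 and Fgf2 shared the other features as well, so the pattern is not particular to Ldha and its nearest genes. The log2 differences of the 3 nearest genes were 0.26 for Mex3c, 0.23 for Med16 and 0.17 for Pop7, with limma adjusted p of 0.685, 0.701 and 0.828.

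Nearest to Pdk3 were Dlg4, a synaptic scaffold protein, at 0.17, Cse1l, which exports importin alpha from the nucleus, at 0.19, and Ndfip1, an adaptor of Nedd4-family ubiquitin ligases, at 0.27. Pdk3 lies 0.16 from a flat line, so no named gene was nearer to it than no variation at all. Dlg4 shared the low readings of Pdk3 on Wistar replicate 1 and GK replicate 2 and the high ones on Wistar replicate 3 and GK replicate 3, and differed by -0.061 between the groups (limma adjusted p = 0.953). Ldha and Pdk3 themselves were 0.34 apart, which made Pdk3 the 12th nearest gene to Ldha and Ldha the 10th nearest to Pdk3.

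**Figure D4:**
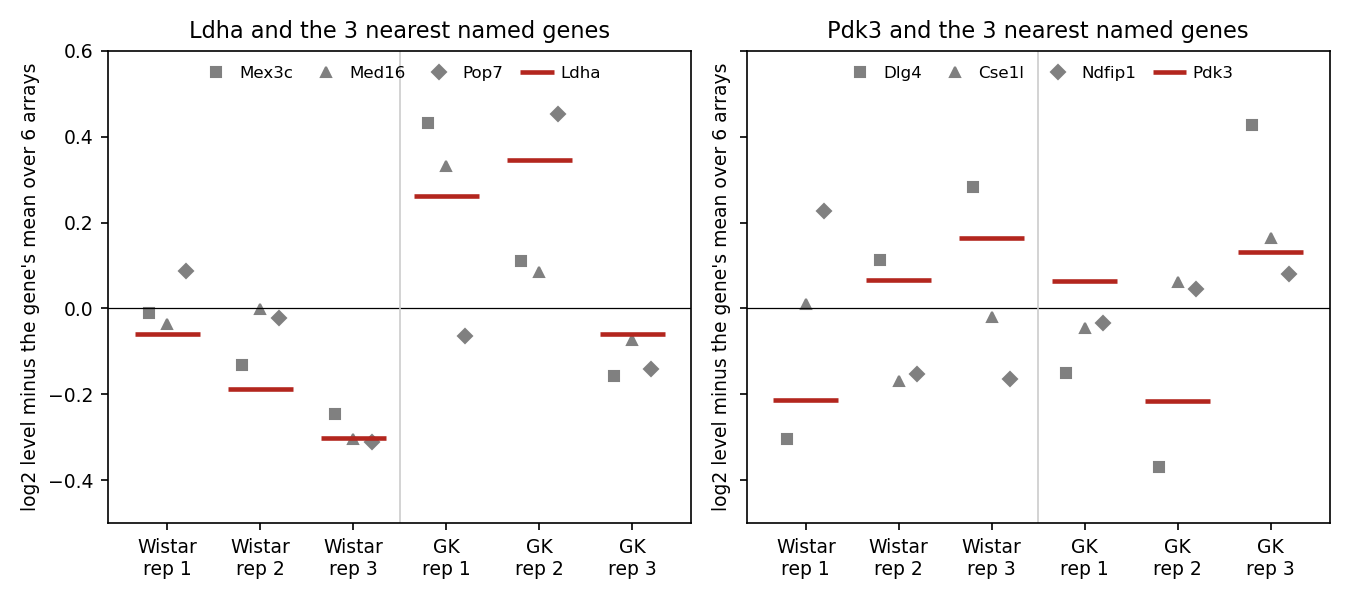
Log2 level minus the gene's own mean over the 6 arrays, for Ldha (left) and Pdk3 (right) as red bars and for the 3 named genes nearest to each as grey symbols, on each Wistar and GK array. Ldha and its nearest genes are lowest on Wistar replicate 3 (-0.30 for Ldha), while the Pdk3 bars are lowest on Wistar replicate 1 and GK replicate 2 (-0.21 on both).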

How the data were processed

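Total RNA of 3 Wistar and 3 GK samples was labelled with Cy3 and hybridised to 1 array each, per the labels, and groups and replicate numbers come from the sample titles. The authors deposited linear intensity per spot that, per the file headers, comes from Agilent Feature Extraction version 11.0.1.1, with its background correction and no normalisation across arrays. The series value table holds 0 of the 50 catalogue probes and was not used. The share of probes well above background ran from 65.1% to 77.3% per array, 0 spots were saturated, and precision is limited by the number of arrays.

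Controls and outlier-flagged spots (0.356% to 1.21% of an array) were left out, including 4 of Ldha and 2 of Pdk3, and log2 spot values of a probe were averaged and set relative to the array's 75th percentile over probes that are not controls. Probes well above background on at least 3 arrays and measured on at least 2 of each group were tested with limma 3.58.1 in R 4.3.3 (lmFit, eBayes; two-sided, Benjamini-Hochberg over all 27920), a procedure tested on simulated data. Genes were named only through accessions matched to RefSeq (GRCr8), which left 38774 probes unnamed. The file headers name an older rat build, so the promoter coordinates are RefSeq's. The named genes are both members, the 3 genes nearest to each, and members of the 41-gene list that have a probe. Members, lists and alternatives were chosen with earlier results of these data known. Alternatives were other scalings, normexp (offset 50), spot summaries, filters, variance models, blocks by replicate number or slide, and leaving out each array. Use of spots from the upper or lower rows only, and the relation of both genes across arrays, were added after the data were seen. Probe sequences were not used here.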

Additional observations from a re-analysis of the deposited data

How the results depend on the processing

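The Ldha difference and the excess of Ldha over Pdk3 kept their sign in every alternative run, and neither gene passed the adjusted threshold in any. Leaving out each array gave 0.28 to 0.49 for Ldha, -0.12 to 0.092 for Pdk3, 0.19 to 0.57 for the excess and 30 to 665 for the count of 100 probes. Pdk3 turned to a higher mean in GK cells at 0.015 with median scaling, 0.021 with the 75th percentile of detected probes, 0.029 without scaling, 0.023 with outlier spots kept, 0.0028 with the median over spots, 0.0066 with a random slide block, and 0.058 with a fixed slide block or within the shared slide, where GK replicate 1 is the lone GK array compared. The count was 156 with catalogue-probe scaling, 62 with normexp, 64 with probes detected on all arrays (fewer tested), 262 with array weights, 7 with a fixed slide block, 65 with a random one and 23 within the shared slide. The cause of these changes was not tested. With the replicate number as a block, the count was 97, Ldha stayed at 0.37 (limma adjusted p = 0.597), Pdk3 at -0.012 and the excess at 0.38. The labels do not say that numbers mark a shared batch. Deviations of same-numbered arrays correlated at 0.0087, 0.099 and 0.42, and those of GK and Wistar arrays with unlike numbers at -0.54 to 0.46. The numbers were therefore not taken as pairs. Pdk3 signals near 4 times the local background limit what can be read from that probe.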

Other observations

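Within each group, the order of the arrays by Ldha was the reverse of their order by Pdk3: Wistar replicates 1, 2 and 3 ran from high to low in Ldha and from low to high in Pdk3, and GK replicates 2, 1 and 3 did the same. This was seen in the values first and then measured. The p-values below therefore leave out how the pattern was picked, and the adjustment covers only the 5 scalings of the same arrays. Over the 6 arrays Spearman's rho was -0.89 (exact permutation p = 0.0333, 0.167 after Benjamini-Hochberg adjustment over the 5 scalings compared) and Pearson's r was -0.53 (exact permutation p = 0.181, adjusted 0.625). Without GK replicates 1 and 2, the arrays farthest from the Ldha median, r was -0.57 over 4 arrays. The relation depended on the scaling. With median scaling rho was -0.66 and r was -0.57 (exact permutation p = 0.175 and 0.25). Without scaling rho was -0.31 and r was -0.042 (exact permutation p = 0.564 and 0.814), with quantile normalisation 0.14 and -0.17 (0.803 and 0.794), and with catalogue-probe scaling 0.20 and 0.37 (0.714 and 0.453). The reversed order within both groups was present under 2 of the 5 scalings. Both genes share an array and its scaling value at each point, which was not tested as a source of the relation. On the slide with 4 arrays r was -0.23 and rho -0.80, with no test at that number, and the other slide holds 2 arrays.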
